A study of Mus musculus with 4 samples.

Results

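E2F1 occupancy at the promoters of 4 genes that restrain ERK signaling was compared between mouse embryonic stem cells (ESCs) kept in serum and in 2i. The members were the peaks at the starts of Spry2, Spred1, Spred2 and Dusp5, which are 4 of the 4523 E2F1 peaks in the deposited table. They were listed by gene and coordinates, and were chosen by the function of the genes together with their serum and 2i normalized counts, which were already known, so the contrast between the media at these peaks is given as a description and carries no test. E2F1 was immunoprecipitated from fixed chromatin of ESCs and the DNA was sequenced (ChIP-seq), with 2 biological replicates in each condition. Serum ESCs (n = 2) grew in medium with fetal calf serum and the cytokine LIF. 2i ESCs (n = 2) grew in a serum-free medium with LIF, the MEK inhibitor PD0325901 and the GSK3 inhibitor CHIR99021. LIF was therefore common to both groups, and the basal medium, the serum and the inhibitors differed together and cannot be told apart. All cells had been adapted to their medium for over 20 days. The labels call the samples embryonic stem cells and do not name the line used for ChIP. The table holds occupancy and no expression, so the cell identity could not be checked with marker genes.

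Fibroblast growth factor receptors signal through the adaptor Grb2, Ras, Raf and MEK to the kinase ERK. Active ERK induces its own inhibitors, and this negative feedback limits how strong and how long the signal is. Sprouty proteins (Spry2 is one) interfere with signaling between the receptor and Raf. Spred proteins bring neurofibromin, a Ras-inactivating protein, to the membrane. Dusp5 is a nuclear phosphatase that acts on ERK itself. In ESCs, Fgf4 signaling through ERK prepares the cells for differentiation, and PD0325901 in 2i blocks the step from MEK to ERK. E2F1 is a transcription factor that is held in check by the retinoblastoma family and that binds many promoters of genes for S-phase entry.

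The Spry2 peak at chr14:106296041-106296920 (NCBIM37, the mm9 build of the table) was 879 bp long and lay wholly upstream of the annotated start of Spry2 (ENSMUSG00000022114.4, minus strand), from -884 to -5 bp relative to it. No annotated exon overlapped it. The Spred1 peak at chr2:116946590-116947487 was 897 bp long and spanned the start of Spred1 (ENSMUSG00000027351.8, plus strand), with its centre 72 bp upstream of the start of transcript Spred1-001 and 231 bp downstream of the RefSeq start. Of its length, 39.1% was 5′UTR, and 27 bp were coding sequence. The Dusp5 peak at chr19:53603505-53604107 was 602 bp long and reached from 94 bp before to 508 bp after the start of Dusp5 (ENSMUSG00000034765.6, plus strand). It covered 300 bp of coding sequence and 209 bp of 5′UTR. The Spred2 peak at chr11:19824412-19824724 was 312 bp long, and all of it lay inside the 5′UTR exon of transcript Spred2-001 (ENSMUSG00000045671.11, plus strand). It began 34 bp after the start of Spred2-001 and spanned a second, downstream start, which is also the RefSeq start. Gene models were those of GENCODE M1. All 4 RefSeq promoters (GRCm38.p6) were found in NCBIM37 by their sequence. The map of the peaks about their gene starts shows that the members sat differently on their genes. Spred1 and Spry2 had long peaks, at percentiles 96.0 and 95.6 of the length of all peaks, while the Spred2 peak was at percentile 2.59. The median peak in the table was 480 bp long.

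**Figure D1:**
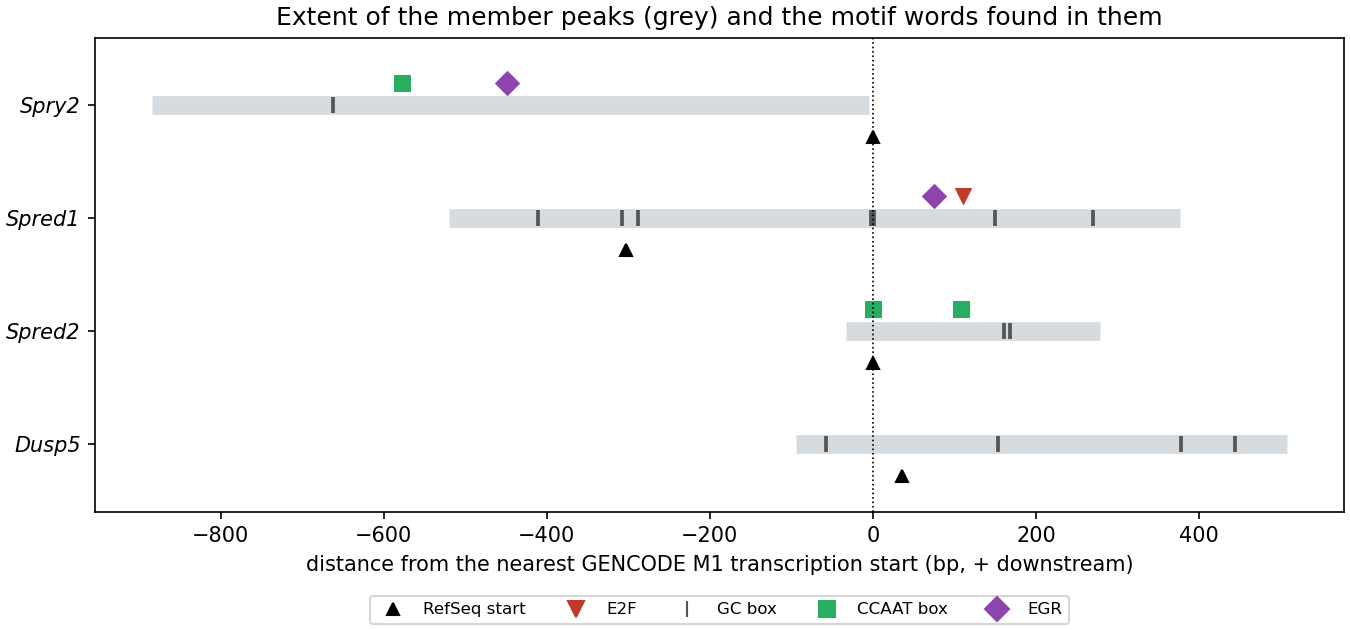
Position of each member peak (grey) in bp along the direction of transcription, with 0 at the GENCODE M1 start nearest to the peak centre. Triangles mark the RefSeq starts, and the other marks are the E2F, GC box, CCAAT box and EGR words found in the peaks. The Spry2 peak ends 5 bp before the start, and the Spred1, Spred2 and Dusp5 peaks span it.

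The 400 bp about each peak centre were searched on both strands for short words that bind known factors. At Spred2, whose peak is 312 bp long, this window reached past both ends of the peak. The E2F words were TTTCCCGC, TTTCGCGC, TTTGCCGC and TTTGGCGC. One of them was present at 1 of the 4 members, Spred1, against 5.10% of the 4509 windows that could be read. The EGR word GCGNGGGCG was present at Spry2 and Spred1 and in 35.9% of all windows. The CCAAT box was present at Spry2 (1 site) and Spred2 (2 sites) and in 19.7% of all windows. The GC box GGGCGG, bound by Sp1 family proteins, was present in 91.2% of all windows. In that window it had 2 sites at Spred1, 3 at Spred2, 2 at Dusp5 and none at Spry2. Over the whole length of the peaks, which differ in length, it had 7 sites at Spred1, 4 at Dusp5, 2 at Spred2 and 1 at Spry2, so the order of the members depends on the stretch searched. Sites in the windows of the members are shown with 10 bases on either side, 5′ to 3′ on the strand that holds the word, with the word in capitals. They comprise the E2F word, which Spred1 alone held, the EGR words of Spry2 and Spred1, the CCAAT boxes of Spry2 and Spred2, and, since no other kind of word was found at Dusp5, the GC box nearest to the centre of its peak.
Spred1, E2F word: accccagcggTTTGCCGCgccgaggtcg
Spred1, EGR word: agccgagacgGCGCGGGCGactgcgggcg
Spry2, EGR word: ctccggaaagGCGAGGGCGcaggccagcg
Spry2, CCAAT box: ccccgcggagCCAATgagctgggac
Spred2, CCAAT box at the start: cgctgagaatCCAATatggagtaaa
Spred2, CCAAT box downstream: ggggaccgggCCAATcagggttccg
Dusp5, GC box: gccagaggacGGGCGGgccacctcgc
The Spred1 E2F word stood at chr2:116947217-116947224 on the minus strand, 110 bp downstream of the Spred1-001 start. The Spred1 EGR word was at chr2:116947181-116947189, also on the minus strand. The Spry2 EGR word, at chr14:106296481-106296489 on the strand of the gene, was 5 bp from the centre of the peak. The Spry2 CCAAT box was at chr14:106296611-106296615 on the same strand. The Spred2 CCAAT boxes were at chr11:19824443-19824447 on the plus strand, at the RefSeq start, and at chr11:19824551-19824555 on the minus strand. The Dusp5 GC box was at chr19:53603750-53603755 on the minus strand, 153 bp downstream of the start. A match gives the letters and not a bound site.

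None of the other words was found at any member. They were GGCGGGAA, which partly overlaps TTTCCCGC read on the other strand (6.59% of all windows), the ETS word CCGGAAG (13.6%), the E-box CACGTG (9.94%), the TATA box TATAAA (2.95%), the AP-1 word TGANTCA (2.31%), the CRE word TGACGTCA (1.69%), the NRF1 word (1.55%) and the TCF/LEF word CTTTGAT (0.776%). The windows of the members were rich in G and C, like those of the other peaks. GC content was 80.75% at Spred1, 75.5% at Dusp5, 73.75% at Spry2 and 71.75% at Spred2, against a median of 75.5% over all windows. The ratio of observed to expected CpG was 1.09 at Dusp5, 1.08 at Spred1, 0.876 at Spry2 and 0.807 at Spred2, against a median of 0.967. Dusp5 and Spred1 stood above that median and both Spry2 and Spred2 below it.

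The values are read counts per peak that the authors divided by a size factor for each library. One read was worth 1.74 and 0.953 in the serum replicates and 0.560 and 1.04 in the 2i replicates, which makes the first serum library the shallowest and the first 2i library the deepest. The 4 libraries held between 248878 and 710519 reads in peaks, and a peak had a median of 35 to 111 reads. Intervals below are exact Poisson intervals at 95% confidence and cover counting error only. A lower value can come from fewer cells with E2F1 at the site or from less E2F1 per cell, and these cannot be told apart in chromatin from many cells.

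At 3 of the 4 genes, Spry2, Spred1 and Dusp5, both serum samples lay above both 2i samples. At Spred2 the groups overlapped. In the table as a whole, the groups did not overlap at 49.3% of peaks, with both serum samples above at 24.9% and below at 24.4%. The difference, given throughout as the mean of log2(normalized count + 1) in serum minus that in 2i, was 2.41 at Dusp5, 1.43 at Spry2, 1.17 at Spred1 and 0.69 at Spred2. The median over the 4 was 1.30, and that over all 4523 peaks was -0.03. A difference above 1 in favor of serum was seen at 3 of the 4 members and at 5.04% of all peaks. Because the members were proposed with this contrast in view, nothing is read from these counts about the members against the rest.

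**Figure D2:**
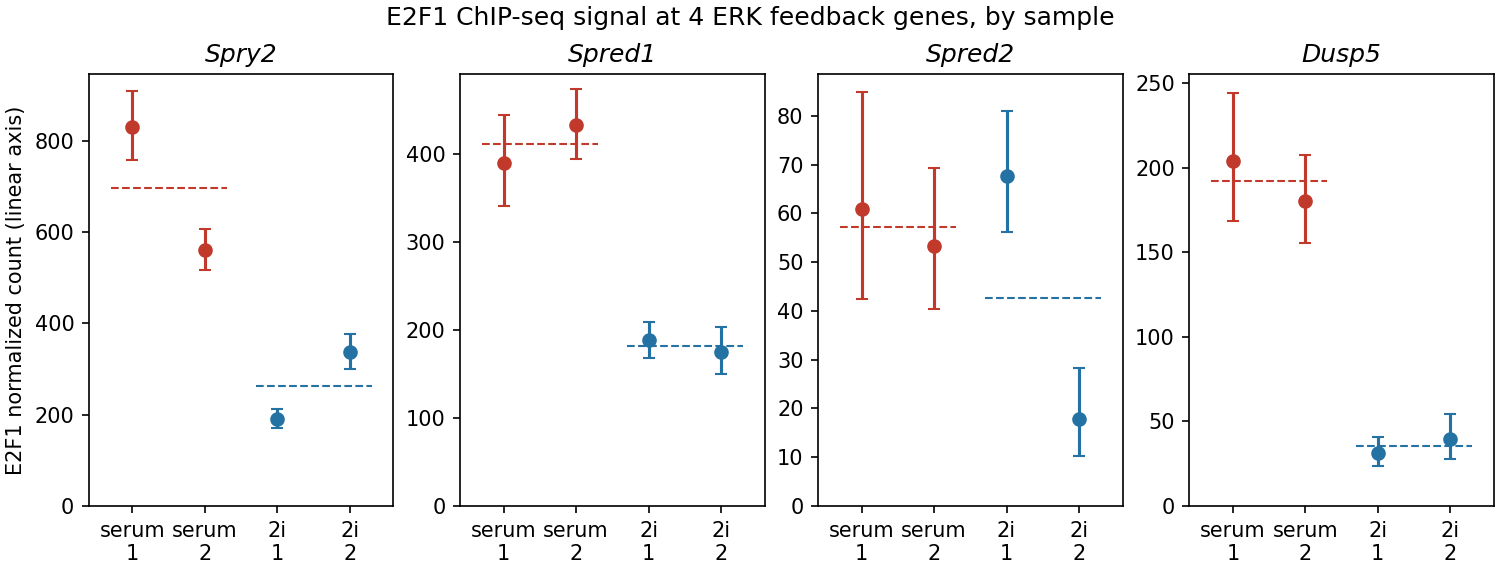
Normalized count of E2F1 ChIP-seq reads (linear axis) at each of the 4 peaks, with 1 point per sample, error bars for the exact Poisson 95% interval of counting error, and a line at the mean of each group of 2. The 2i points lie below the serum points at Spry2, Spred1 and Dusp5, and at Spred2 the 2i samples, 67.7 and 17.7, stand on either side of both serum samples.

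Dusp5, the nuclear ERK phosphatase, had the largest difference of the 4. Its peak had 204 normalized counts in serum replicate 1 (117 reads, interval 169 to 244) and 180.2 in serum replicate 2 (189 reads, 155 to 208). In 2i it had 31.4 in replicate 1 (56 reads, 23.7 to 40.7) and 39.6 in replicate 2 (38 reads, 28.1 to 54.4). The lowest serum interval lay above the highest 2i interval. Serum averaged 192 ± 16.8 against 35.5 ± 5.86 for 2i (SD, n = 2 per medium), a ratio of 5.41. The replicates differed 1.13-fold in serum and 1.26-fold in 2i, less than the media did. The 4 pairs of a serum with a 2i sample gave log2 differences of 2.16 to 2.66, each above every pair at the other 3 members. Among all peaks ordered by this difference, Dusp5 stood at rank 8, while its mean over the 4 samples was at rank 1077, so that its level was not among the highest.

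Spry2, the Sprouty gene of the set, had the highest level of the 4. Its peak had 831 normalized counts in serum replicate 1 (477 reads, interval 758 to 909) and 560 in serum replicate 2 (588 reads, 516 to 608). In 2i it had 190 in replicate 1 (340 reads, 171 to 212) and 337 in replicate 2 (323 reads, 301 to 376). The groups did not overlap, and the replicates of each group differed beyond counting error. Serum averaged 696 ± 191 and 2i averaged 264 ± 104 (SD, n = 2 per medium), a ratio of 2.64. The 4 pairs gave log2 differences from 0.73 to 2.12, so the size of the Spry2 difference was known less closely than that of Dusp5. The replicates differed 1.48-fold in serum and 1.77-fold in 2i. Replicates as far apart as these were found at 29.8% of all peaks in serum and at 12.0% in 2i. Its mean was at rank 47 of all peaks and its difference at rank 88.

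Spred1, a Spred family inhibitor of Ras, had the closest replicates. Its peak had 390 normalized counts (224 reads, interval 341 to 445) and 433 (454 reads, 394 to 474) in serum, and 188 (336 reads, 169 to 209) and 175 (168 reads, 150 to 204) in 2i. The groups lay apart, and the replicates of each were within counting error of each other. Serum averaged 412 ± 30.0 against 182 ± 9.09 for 2i (SD, n = 2 per medium), a ratio of 2.27. The 4 pairs gave log2 differences from 1.05 to 1.30, and the replicates differed 1.11-fold in serum and 1.07-fold in 2i. The difference was at rank 156 of all peaks, and the mean was at rank 165. It is the member whose difference stood nearest to a log2 value of 1 from above, and Spred2, at 0.69, was the 1 member below it. Scaling by a smooth fit across levels (cyclic loess) put Spred1 at 0.97.

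Spred2, the other Spred gene, did not separate by medium. Its peak had 61.0 normalized counts (35 reads, interval 42.5 to 84.8) and 53.4 (56 reads, 40.3 to 69.3) in serum, and 67.7 (121 reads, 56.2 to 80.9) and 17.7 (17 reads, 10.3 to 28.4) in 2i. Both serum samples and 2i replicate 1 lay close together, and 2i replicate 2 was low. Serum averaged 57.2 ± 5.37 against 42.7 ± 35.4 for 2i (SD, n = 2 per medium), a ratio of 1.34. The 2i replicates differed 3.82-fold, and replicates as far apart as that were found at 0.752% of all peaks (34 of them). The 4 pairs gave log2 differences from -0.34 to 1.73. The value therefore rested on 2i replicate 2: without that sample the difference was -0.24, and without 2i replicate 1 it was 1.63.

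The difference at each member was computed again with other pseudocounts, with other scalings and without each sample in turn. Dusp5 and Spry2 kept a difference above 1 in all 8 of these settings. Spred1 kept it in 7 and Spred2 passed 1 only without 2i replicate 1.

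**Figure D3:**
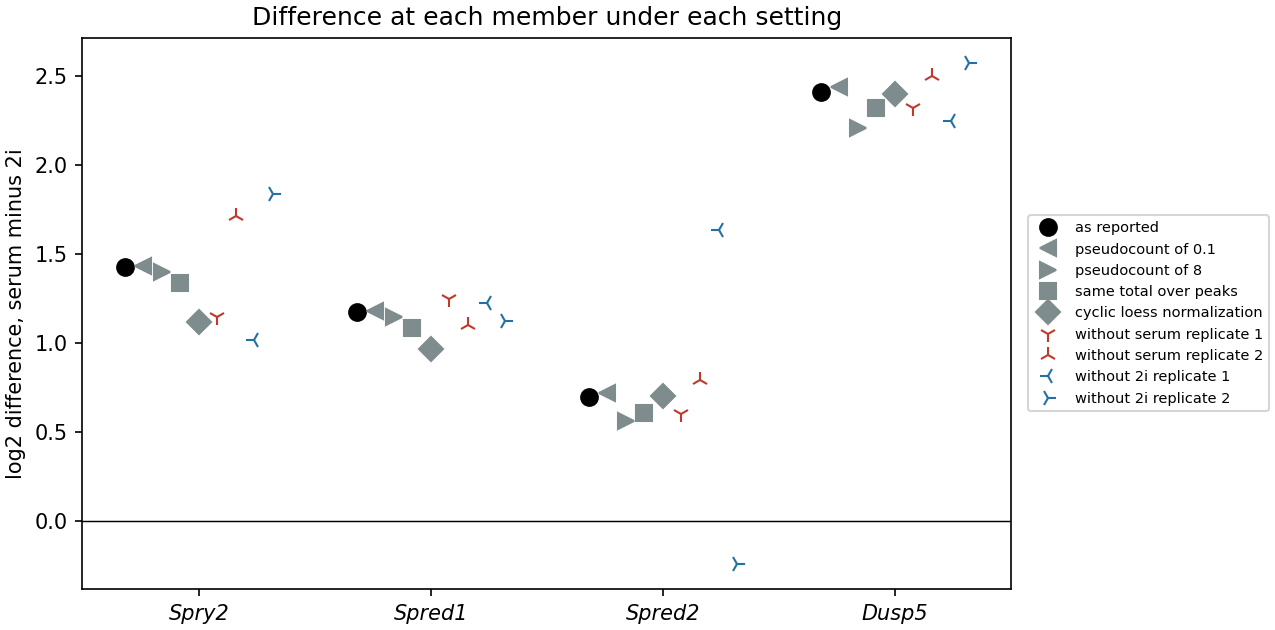
Log2 difference between serum and 2i at each member under each setting, with the value as reported and those after another pseudocount, another scaling or without 1 sample. Dusp5 stays above 2 and Spry2 above 1 in all of them, Spred1 reaches 0.97 under the smooth scaling, and Spred2 is negative without 2i replicate 2.

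The levels and ranks of the mean given above are per peak, so they also depend on peak length. Here the levels of the genes are set against each other per length. In serum, the normalized count per kb of peak was 792 ± 218 at Spry2, 459 ± 33.5 at Spred1, 319 ± 27.8 at Dusp5 and 183 ± 17.2 at Spred2 (SD, n = 2 each), and no neighbours in that order overlapped between samples. In 2i, it was 299.9 ± 118 at Spry2, 203 ± 10.1 at Spred1, 137 ± 113 at Spred2 and 59.0 ± 9.74 at Dusp5. Spred2 in 2i ranged from 56.8 to 217 per kb, overlapping Dusp5, Spred1 and Spry2. The order of Dusp5 and Spred2 differed between the media, and in 2i these neighbours did not differ beyond their spread. The length of a peak was set when peaks were called and then intersected and merged between samples, so these levels also depend on where the peak ends were put.

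**Figure D4:**
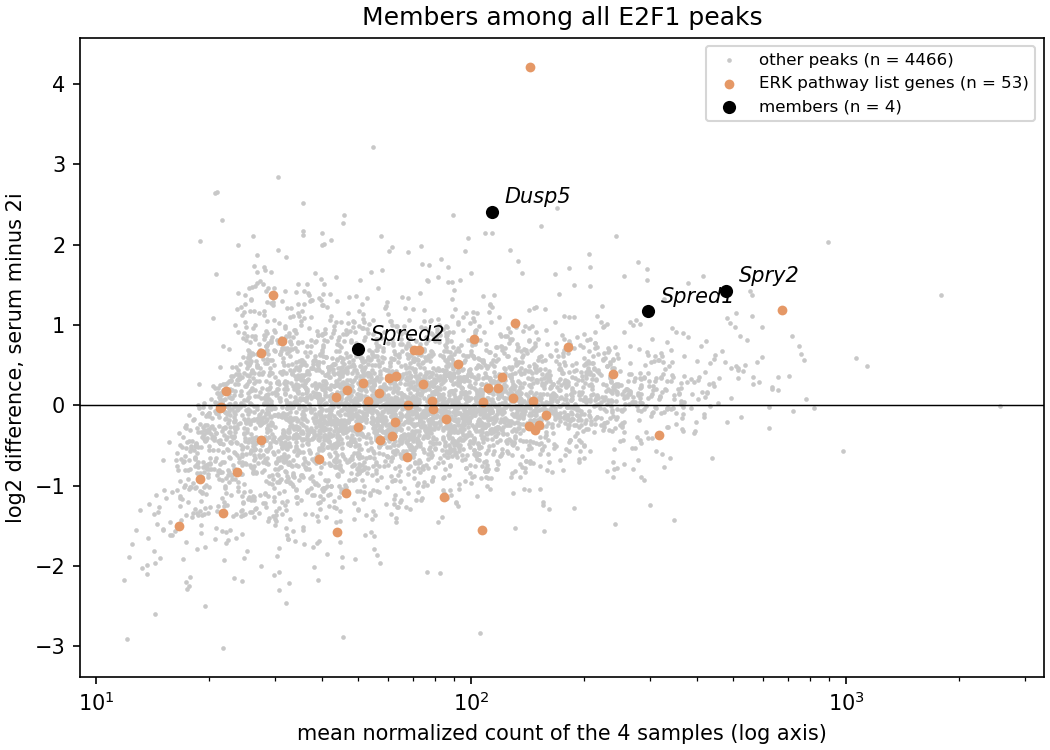
Difference between serum and 2i (log2, vertical axis) against mean normalized count (horizontal axis, log scale) for all 4523 E2F1 peaks, with the 4 members named. Dusp5 stands at 2.41, Spry2 at 1.43 and Spred1 at 1.17, above a difference of 1, and Spred2 at 0.69 lies below that value.

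Peaks close to the members were looked at to see whether the surroundings moved with them. Within 200 kb, Spry2 and Spred1 had no other peak. Spred2 had a second peak at chr11:19825322-19825726, centred 1079 bp downstream of the RefSeq start. It had 94.1 and 55.3 normalized counts in serum and 70.5 and 42.8 in 2i, and the groups overlapped. The log2 difference was 0.39 ± 0.37 (SE), with an adjusted p of 0.643 (limma, Benjamini-Hochberg over all peaks). Its other neighbour, the peak of the actin-related gene Actr2 at 188184 bp, gave -0.27 with an adjusted p of 0.687 (limma). Next to Dusp5, 71395 bp away, the peak of the cohesin gene Smc3 had 61.0 and 57.2 in serum and 29.1 and 50.1 in 2i, a log2 difference of 0.61 with an adjusted p of 0.418 (limma). At 199776 bp, the peak of Mxi1, which encodes a repressor of Myc targets, gave 0.08 with an adjusted p of 0.929 (limma). None of these 4 neighbours had a log2 difference beyond 1 and an adjusted p under 0.05 (limma), as 1.46% of all peaks had. So few peaks cannot tell whether the surroundings moved with the members. The chromosomes that carry the members had median log2 differences of 0.12 (chromosome 19), 0.11 (chromosome 14), -0.01 (chromosome 2) and -0.24 (chromosome 11).

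Among the 4112 other peaks at gene starts, those with the pattern most like each member were found by the root mean square (RMS) difference of log2 values over the 4 samples, each peak centred on its own mean. The nearest to Spry2 was Ccrn4l, with 526 and 351 normalized counts in serum and 111 and 190 in 2i (RMS 0.068). Like Spry2, it was higher in the first serum replicate and in the second 2i replicate. The nearest to Dusp5 was Hspg2, which encodes the basement membrane proteoglycan perlecan, with 92.3 and 62.9 in serum and 11.8 and 16.7 in 2i (RMS 0.14). The nearest to Spred1 was Pwwp2b (RMS 0.081) and to Spred2 A2ld1 (RMS 0.12). The second nearest were Snhg1 for Spry2 (RMS 0.12), D130058E05Rik for Spred1 (0.084), Hecw2 for Spred2 (0.17) and 1190005I06Rik for Dusp5 (0.15). An RMS under 0.2 was reached by 48 peaks for Spred1, 10 for Spry2, 3 for Dusp5 and 2 for Spred2. The members were less like each other than that, from 0.43 between Spry2 and Spred1 to 1.16 between Spred2 and Dusp5. The 4 samples ranked in the same order at Spry2 and Dusp5 and in other orders at Spred1 and Spred2.

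The other genes of the pathway were taken from lists of 98 genes, of which 54 had a peak within 1000 bp of a start. For these, a peak was called when its log2 difference was beyond 1, whichever the sign, and the limma p before adjustment was under 0.05. That rule called 10.3% of all 4523 peaks, of which 4.82% favored serum and 5.48% favored 2i. With the p adjusted by Benjamini-Hochberg, 66 peaks (1.46%) passed, most of them (1.15% of all peaks) on the serum side. Of the 53 peaks at list genes other than the members, 10 were called, or 18.9%. Higher in serum were 4 (7.55%) and higher in 2i were 6 (11.3%), but the split turned without 2i replicate 2, with 4 in serum and 2 in 2i, and among peaks with a mean of at least 50, with 3 and 2. The median log2 difference over the 53 was 0.05, and 2 of the 10 passed with the adjusted p. With 2 against 2 samples, an exact permutation test cannot give a two-sided p below 0.333, so these calls rest on the spread that limma pools over all peaks.

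The lists of ERK pathway inhibitors hold 33 genes, and 15 of them other than the members had a peak, with 17 peaks in all. The count called higher in serum was 0 by limma, against 4.82% of all peaks, which is a share near the background for 17 peaks, and 1 peak, that of Spry1, had an unadjusted p under 0.05 in that direction. Called higher in 2i were 3 of the 17 (17.6%, against 5.48% of all peaks). The median log2 difference was 0.05. Both serum samples lay above both 2i samples at 5 of the 17 and below them at 5, near the 24.9% and 24.4% of all peaks.

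Spry1, the other Sprouty gene with a peak, had 78.4 and 102 normalized counts in serum and 54.9 and 55.3 in 2i. The samples did not overlap, and the log2 difference was 0.69 ± 0.30 (SE), with an adjusted p of 0.263 (limma), so it was not called. Of the phosphatases, 4 genes besides Dusp5 had a peak. Dusp1, an early-response phosphatase of MAP kinases, had 10.5 and 13.3 in serum and 29.7 and 33.4 in 2i. It was called higher in 2i, with a log2 difference of -1.34 ± 0.48 (SE), an unadjusted p of 0.0169 and an adjusted p of 0.181 (limma), and the call was lost without either 2i replicate, under the smooth scaling and with a pseudocount of 8. Its direction was opposite to that of Dusp5. Dusp16, which acts mainly on the stress kinases JNK and p38, had 55.8 and 49.6 in serum and 85.7 and 79.3 in 2i, a log2 difference of -0.64 that was not called (adjusted p 0.292, limma). Dusp7, a cytoplasmic phosphatase of ERK, had 127 and 112 in serum and 91.3 and 115 in 2i, a difference of 0.22 (adjusted p 0.725, limma). Dusp2, with 45.3 and 43.8 in serum and 33.0 and 52.2 in 2i, gave 0.10 (adjusted p 0.920, limma), and neither Dusp7 nor Dusp2 was called.

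**Figure D5:**
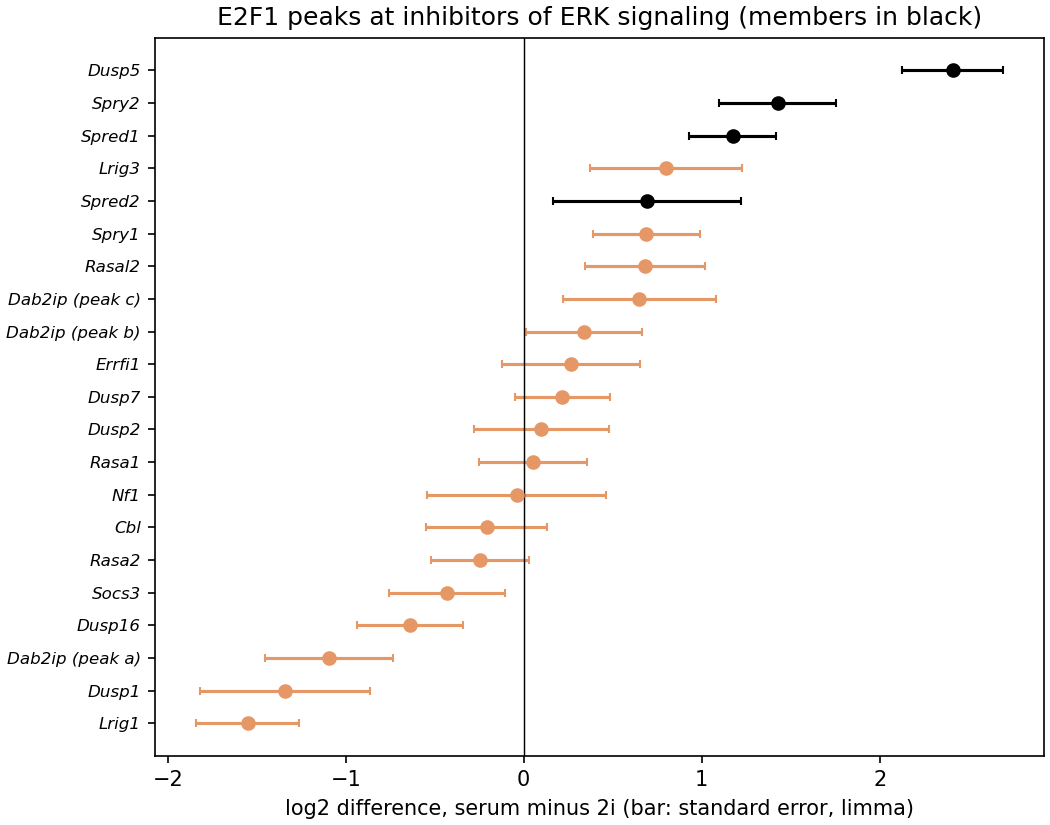
Log2 difference between serum and 2i (horizontal axis) at each peak of the Sprouty, Spred, Dusp and other inhibitor genes, with bars for the standard error of the limma fit and the 4 members marked apart. Dusp5, Spry2 and Spred1 lie beyond 1 on the serum side, and Lrig1, Dusp1 and 1 of the Dab2ip peaks lie beyond -1 on the 2i side.

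Among the inhibitors that act on receptors, Ras or Raf, the clearest difference was at Lrig1, which lowers growth factor receptors of the ErbB family. It had 45.3 and 62.9 in serum and 177 and 142 in 2i. The log2 difference was -1.55 ± 0.29 (SE), and the adjusted p was 0.0321 (limma). Lrig1 was called higher in 2i under every alternative run. A peak of Dab2ip, a Ras GTPase-activating protein, had 27.9 and 30.5 in serum and 56.5 and 70.9 in 2i and was called higher in 2i, at -1.09 with an adjusted p of 0.154 (limma). The call was lost without 2i replicate 2 and with a pseudocount of 8, and the other 2 peaks of that gene, at 0.65 and 0.34, were not called. Rasa2, also a Ras GTPase-activating protein, had the highest mean of these, with 162 and 116 in serum and 142 and 188 in 2i, and was not called (-0.25, adjusted p 0.696, limma).

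The genes of the signaling chain itself were set beside the 10.3% of all peaks that were called. Of the ligand and receptor genes, 4 of 9 had a peak, and 2 of their 5 peaks were called. Fgfr2 was called higher in serum, with 36.6 and 48.6 in serum and 10.6 and 22.9 in 2i (log2 difference 1.37 ± 0.49, SE, adjusted p 0.181, limma), and the call was lost without serum replicate 2 and without 2i replicate 1. A peak of Fgfr1 was called higher in 2i, with 6.97 and 9.53 in serum and 26.9 and 22.9 in 2i (-1.50, adjusted p 0.175, limma), and this call was lost without either 2i replicate and under the smooth scaling. Fgf4, the ligand that ESCs make, had 139 and 127 in serum and 115 and 137 in 2i, and the difference was 0.09 (adjusted p 0.897, limma). Fgfrl1 was not called (-0.67, adjusted p 0.400, limma). Of 8 adaptor and exchange factor genes with a peak, the Ras activator Sos2 was called higher in 2i, with 38.3 and 69.6 in serum and 108 and 123 in 2i (-1.14, adjusted p 0.121, limma), and the call was lost without serum replicate 1. The adaptors Grb2 (-0.13, adjusted p 0.866) and Crk (-0.31, adjusted p 0.607) were not called (limma).

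Of the 13 Ras, Raf, Mek and Erk genes with a peak, 0 were called by limma, near the background of 10.3% for so few peaks, and 1, Rps6ka2, had an unadjusted p under 0.05 (0.0119, log2 difference 0.82). Map2k2, which encodes MEK2, gave 0.05 (adjusted p 0.941, limma). Mapk3, which encodes ERK1, was at -0.44 and was not called. The median over the 13 was 0.18. The genes that ERK induces gave 3 calls in serum among 10 with a peak (4.82% of all peaks), Egr1 (4.21, adjusted p 0.00142), Mcl1 (1.18, adjusted p 0.0761) and Srf (1.02, adjusted p 0.0954), and 1 in 2i (5.48% of all peaks), Trib1 (-1.58, adjusted p 0.0963), by limma. Klf10 was not called (0.39, adjusted p 0.474, limma). The call of Srf was lost under 5 of 11 alternatives, among them those without serum replicate 1 and without 2i replicate 1, that of Trib1 without 2i replicate 2, and that of Mcl1 under the smooth scaling.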

How the data were processed

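The E2F1 ChIP-seq values of 2 serum and 2 2i samples came from 1 table of peaks. The authors mapped paired reads to mm9 (BWA), removed duplicates and blacklisted regions, ran MACS2 on every sample by itself, kept peaks shared by replicates, joined both media into 1 set (bedtools), counted reads per peak and divided the counts by DESeq2 size factors. Versions are not given in the sources used here. The deposited values are therefore a signal, normalized counts per peak. Of the 18092 values, 99.95% were whole reads within 0.05 read of the step of their sample.

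Values were analysed as log2(value + 1) with limma 3.58.1 (R 4.3.3, trend on the mean, 2 groups, all 4523 peaks, Benjamini-Hochberg adjustment). A fold on this scale understates the change of weak peaks. Peaks were given to a gene when the centre was within 1000 bp of a GENCODE M1 start. Motifs were searched with Python 3.11.15. The text names the 4 members, every list gene with a called peak, the 2 genes of each list with the highest mean, every other Sprouty, Spred or Dusp gene with a peak and the 2 peaks most like each member, except for an item that is not reported here. Further genes (Actr2, Smc3, Mxi1, Rps6ka2 and Mapk3) were named after their values were seen. The members and lists were chosen with earlier results of these data known. Spry3 was not matched, and Hras was matched as Hras1. A read-through transcript of Fgfr2 that starts at another gene was left out, a choice made after seeing the data.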

Additional observations from a re-analysis of the deposited data

How the results depend on the processing

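The log2 difference at Dusp5 was 2.21 with a pseudocount of 8, and that at Spred1 was 1.08 with the same total in every sample and 0.97 after cyclic loess. Leaving out 1 sample at a time gave 2.24 to 2.57 at Dusp5, 1.02 to 1.84 at Spry2, 1.10 to 1.25 at Spred1 and -0.24 to 1.63 at Spred2, where the value without 2i replicate 2 reversed the direction. The 466 called peaks became 188 among peaks with a mean of at least 50 and 66 with the adjusted p. They ranged from 378 to 674 without 1 sample, where the lone sample is assumed to vary like the other group. The share of calls higher in serum was 46.8%, and it was 36.3% with the same total, 58.3% after loess, 64.4% with the minimum of 50 and 78.8% with the adjusted p. The median of all peaks shifted by -0.09 with the same total and by 0.01 after loess. The 10 called list peaks became 6 after loess, 5 with the minimum of 50, 2 with the adjusted p and 6 to 9 without 1 sample. Under the other alternatives run, both counts stayed within 1.5 times, at 317 to 504 over all peaks and 7 to 12 at list genes, and the 4 members kept serum as the higher group. With the read-through transcript of Fgfr2 kept, 11 of 54 list peaks were called.

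Samples with the same replicate number did not deviate together (correlation over peaks 0.0483). With the replicate block, 504 peaks were called, 462 of them shared with the 466, and 10 list peaks were called. Count tests with edgeR and DESeq2 on reads taken back from the steps were not run. With 2 samples a group and as few as 17 reads at Spred2, the size of its difference is not fixed by these data.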
